A study of Mus musculus with 10 samples.

Results

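The genes described here are 37 of the 32285 genes of a mouse Achilles tendon RNA-seq count table. They were chosen by name for their place in protein secretion: 3 transcription factors of secretory cells, 3 subunits of the Sec61 translocon, 4 of the translocon-associated protein complex, 3 of signal peptidase, 7 chaperones and disulfide isomerases of the endoplasmic reticulum (ER), 10 components of the COPII coat, 4 proteins of ER exit sites and large cargo, and 3 KDEL receptors. All 37 were found in the table and all passed the filter on low counts. Tendon RNA was taken 4 weeks after tamoxifen (20 mg/kg, given at 6 weeks of age) from mice of 3 genotypes. The conditional knockout (Mkx-CreER/flox, n = 3) carried an Mkx-CreER allele, a tamoxifen-activated Cre recombinase named for the Mkx gene, and a floxed Mkx allele, whose loxP sites Cre recombines. Of the controls, one had only the CreER allele (Mkx-CreER/+, n = 3) and the other only the floxed one (Mkx flox/+, n = 4), and every group received tamoxifen. How the CreER allele was built, whether it disrupts Mkx, and which Mkx exons are floxed could not be read from the labels. RamDA-seq, a full-length total RNA protocol meant for very little RNA, gave the libraries, which are numbered here as in the columns of the count table.

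Mohawk, the product of Mkx, is a homeobox protein that acts in tendon cells, the producers of the tissue's type I collagen. Procollagen enters the ER through the Sec61 channel, loses its signal peptide, folds with the help of chaperones, and leaves at exit sites in carriers made by the COPII coat, where TANGO1 family proteins (Mia3, Mia2) help to load this bulky cargo. KDEL receptors return escaped ER chaperones from the Golgi. Creb3l1, also called OASIS, is an ER-bound transcription factor that is cut and released to the nucleus and is known in bone for driving collagen and secretory genes. Xbp1 is the factor of the IRE1 arm of the unfolded protein response, and Creb3l2 is a close relative of Creb3l1 known for its role in cartilage secretion.

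Libraries held 8680934 to 22656417 counts, at which 3 counts correspond to 0.126 to 0.36 CPM (a gene's count scaled to a common library total, here with TMM factors). The 37 genes measured 16.2 to 465 CPM in single libraries, and together took 0.438% to 0.659% of the counts. The labels call the libraries replicates without saying that each came from its own animal, so p-values measure the spread between these libraries. The targeted gene Mkx measured 26.1, 32.4 and 30.5 CPM in Mkx-CreER/flox, 91.4, 93.8 and 93.5 in Mkx-CreER/+, and 187, 177, 121 and 153 in Mkx flox/+, so the 3 genotypes did not overlap. Summed markers of tendon cells (7 genes, Col1a1 among them) measured 15100 to 22100 CPM in Mkx-CreER/flox, 24600 to 29800 in Mkx-CreER/+ and 38400 to 62900 in Mkx flox/+, and 3 of the 7 fell against both controls. Skeletal muscle markers ran the other way, at 71400 to 140000, 30600 to 83100 and 17000 to 56500 CPM, with 6 of 20 risen. Macrophage markers (10 of 10 fell) measured 724 to 817, 1050 to 2610 and 1560 to 2570 CPM. Markers of plasma and B cells, which are rich in this machinery, summed to 88.2 to 116, 133 to 138 and 151 to 236 CPM, and of the 4 of 8 that passed the filter none was called. Erythroid (0 of 5 called), cartilage (0 of 4), endothelial (1 of 4 rose) and Schwann cell markers (1 of 6 rose) completed the lists, and no marker of any list was at 0 in all 10 libraries. Beside these marker counts, 1.62% of all genes tested fell and 3.03% rose against both controls. In bulk tissue, fewer cells of a type and less RNA per cell cannot be told apart, and the part of these cell types in the results below was not tested. Muscle-adjusted values are given for some genes. The summed muscle markers did not overlap between the knockout and Mkx flox/+, so that fit cannot fully separate muscle content from genotype.

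Levels per exon length in the control tendons spanned a wide range within each step of the pathway. On the TPM scale (counts divided by exon length, then scaled to a common total per library), the KDEL receptor Kdelr2 led with 411 TPM as the mean of both control genotypes. Next came Sar1a, the GTPase that starts COPII assembly, at 321 TPM, the lectin chaperone Calr (calreticulin) at 294 TPM and the HSP90 chaperone of the ER, Hsp90b1, at 269 TPM. Creb3l1 stood at 174 TPM, close to Xbp1 at 194 TPM and above Creb3l2 at 65.0 TPM. Of the cargo-binding Sec24 paralogs, Sec24d had the highest mean (92.3 TPM) and Sec24a the lowest (29.8 TPM). At the low end stood Mia2 at 16.1 TPM, while its relative Mia3 measured 113 TPM. Across the 7 control libraries neighbours in this order overlapped: Sar1a spanned 268 to 408 TPM, Calr 224 to 356 and Hsp90b1 197 to 369. Creb3l1 spanned 96.9 to 305 TPM, a range in which the control genotypes did not overlap, as described below.

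**Figure D1:**
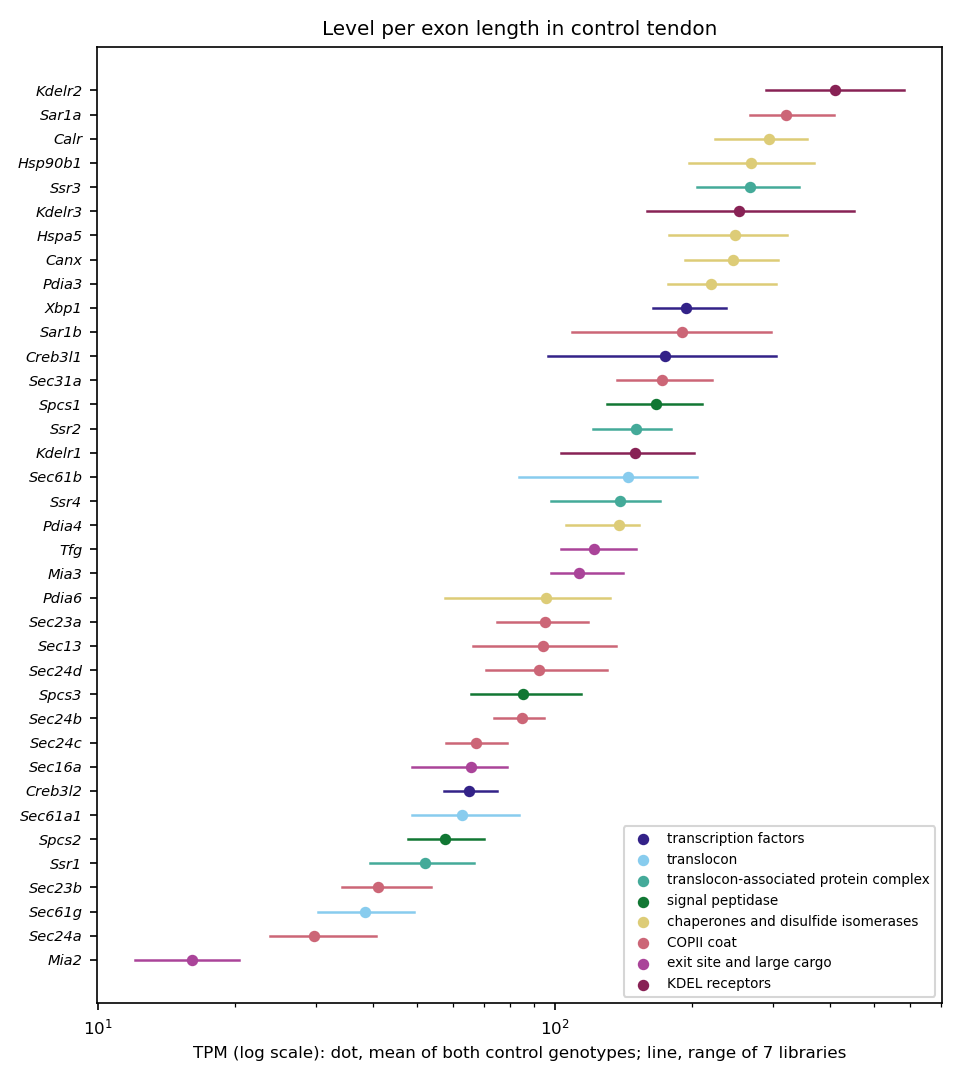
Level per exon length of the 37 genes in control tendon, on a log scale in TPM, sorted by level and coloured by role. Dots are means of both control genotypes and lines span the 7 control libraries; Kdelr2 is highest at 411 TPM and Mia2 lowest at 16.1 TPM.

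Against both controls with equal weight, Creb3l1 was the one gene of the 37 that was called, by edgeR's quasi-likelihood test at a Benjamini-Hochberg adjusted p under 0.05 over all 16017 genes tested, and it fell. Of all genes tested, 4.65% were called in this comparison, 1.62% as fallen and 3.03% as risen. At an unadjusted p under 0.05, 6 of the 37 were lower (Creb3l1, Sec61a1, Ssr2, Ssr4, Kdelr1 and Kdelr3) and 0 higher, beside 8.73% and 11.9% of all genes. The median log2 fold change of the 37 was -0.059, beside 0.016 for all genes tested, and 23 of 37 were negative, beside 48.5% of all genes. No gene had all 3 Mkx-CreER/flox libraries outside the range of the 7 controls, where 3.12% of all genes lay lower and 3.81% higher. For 34 of the 37 genes the 95% interval of the fold change lay within 2-fold in either direction, and for 18 within 1.5-fold.

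The 2 control genotypes gave different pictures when taken alone. Against Mkx flox/+, Creb3l1, Sec61a1, Ssr4 and Kdelr1 fell and no member rose, in a comparison where edgeR called 7.27% of all genes, 2.9% as fallen and 4.37% as risen. At an unadjusted p under 0.05, 10 members were lower and 0 higher (10.3% and 12.7% of all genes). The 3 Mkx-CreER/flox libraries lay below all 4 Mkx flox/+ libraries for 8 members (Creb3l1, Sec61a1, Ssr4, Sec24b, Sec31a, Sec16a, Kdelr1 and Kdelr3), and above them for 0, beside 9.5% and 10% of all genes. The median of the 37 was -0.17, beside 0.0091 for all genes. Against Mkx-CreER/+, 0 of the 37 were called, in a comparison in which edgeR called Mkx alone (0.00624% of all genes). None reached an unadjusted p under 0.05 either, beside 4.98% of all genes lower and 5.76% higher. DESeq2 called 0 members among 118 genes, and limma voom called Kdelr1 (-0.71, limma adjusted p = 0.0483) among 734. Pdia6, a disulfide isomerase chosen after its values were seen, was the one member whose Mkx-CreER/flox libraries (85.4, 81.9 and 79.4 CPM) all lay below the Mkx-CreER/+ libraries (111, 85.9 and 101 CPM), where 6.14% of all genes did so; 0 members lay above, beside 6.65% of all genes. In that comparison 36 of 37 intervals lay within 2-fold and 16 within 1.5-fold, so larger changes than 2-fold were outside the interval for all members but Sar1b (95% interval 67.8% to 264% of Mkx-CreER/+). The comparisons with the controls share the Mkx-CreER/flox libraries and are not independent of each other.

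**Figure D2:**
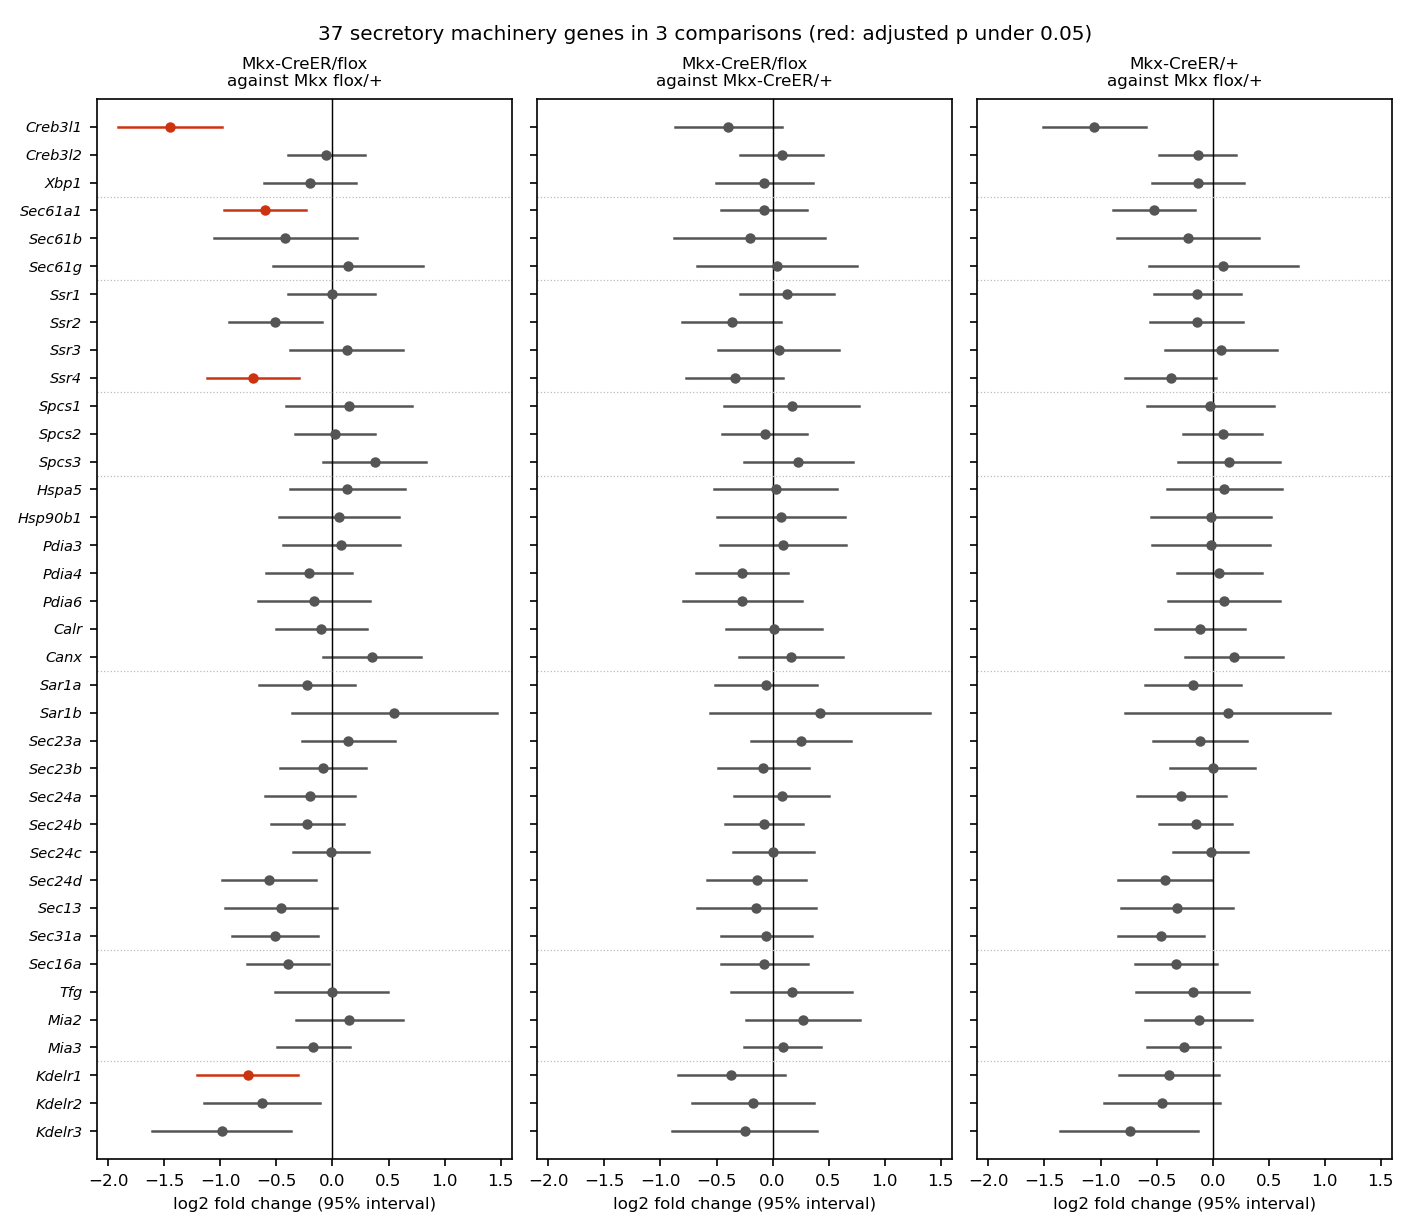
Log2 fold changes with 95% intervals from edgeR for the 37 genes, grouped by role, in 3 comparisons of single genotypes (from left: knockout against Mkx flox/+, knockout against Mkx-CreER/+, and the controls against each other). Red marks an adjusted p under 0.05: Creb3l1, Sec61a1, Ssr4 and Kdelr1 in the left panel, none in the others.

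Among the transcription factors, Creb3l1 differed most between the genotypes. Creb3l1 (ENSMUSG00000027230, chromosome 2, 91982328 to 92024502, minus strand, mm10) measured 47.6, 52.4 and 79.4 CPM in Mkx-CreER/flox libraries 1, 4 and 5. It measured 83.8, 70.9 and 81.2 CPM in Mkx-CreER/+ libraries 1, 2 and 4, and 211, 159, 129 and 155 CPM in Mkx flox/+ libraries 1 to 4. Library Mkx-CreER/flox 5 lay within the Mkx-CreER/+ range, while both genotypes with the CreER allele lay wholly below Mkx flox/+. Against both controls Creb3l1 fell to 52.8% of the control level (95% interval 39.3% to 70.8%), a log2 fold change of -0.92 with SE 0.198 (edgeR adjusted p = 0.0249). Against Mkx flox/+ it fell to 36.6% (26.5% to 50.5%), at -1.45 with SE 0.217 (edgeR adjusted p = 0.00364). Against Mkx-CreER/+ it stood at -0.40 (SE 0.224, edgeR adjusted p = 0.562), or 76.0% of that control, with an interval of 54.6% to 106%. The call against Mkx flox/+ was made in each of the 19 other settings, the muscle-adjusted one among them (-1.21, edgeR adjusted p = 0.0243). The call against both controls was lost in 7 of 19, which included leaving out Mkx-CreER/+ 1 (edgeR adjusted p = 0.0626) or 2 (0.0577), or knockout library 1 (0.0672) or 4 (0.0918), and the muscle-adjusted fit (-0.75, 0.0863). Without Mkx-CreER/+ 1 or 2 the value was -0.92 or -0.96, and calls over all genes went from 744 to 76 or 67. Without knockout library 1 or 4 the value was -0.81 or -0.84, with 213 or 64 genes called. The other factors did not pass the test. Against both controls Xbp1 stood at -0.14 (SE 0.174) and Creb3l2 at 0.014 (SE 0.146), with edgeR adjusted p of 0.715 and 0.974. Creb3l2 measured 120, 113 and 149 CPM in Mkx-CreER/flox, 114, 117 and 130 in Mkx-CreER/+, and 129, 131, 151 and 118 in Mkx flox/+, so its genotypes overlapped throughout.

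**Figure D3:**
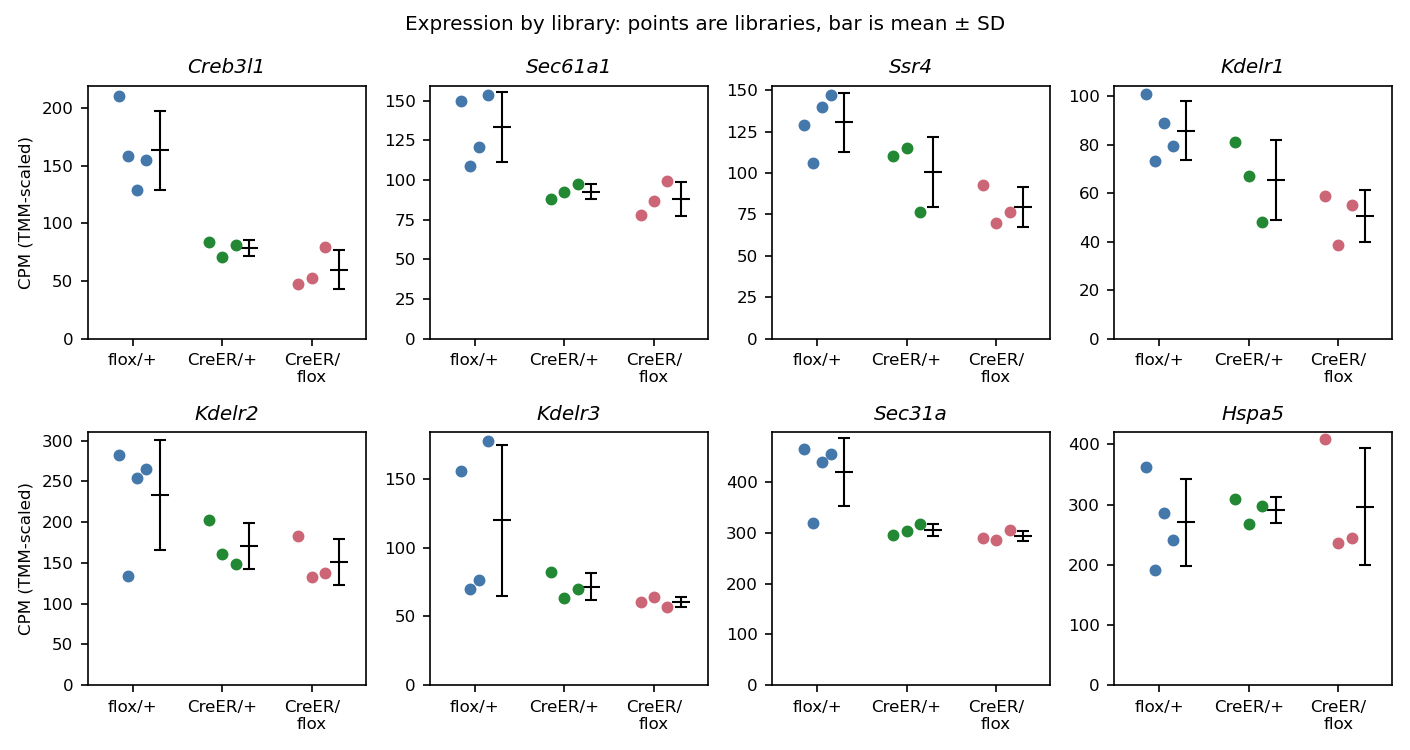
CPM by library for 8 of the genes, with Mkx flox/+ in blue (4 libraries), Mkx-CreER/+ in green (3) and Mkx-CreER/flox in red (3), bars showing mean ± SD and axes starting at 0. Creb3l1 is lower in both genotypes with the CreER allele than in Mkx flox/+, while the chaperone Hspa5 overlaps in all 3 and is highest (409 CPM) in library Mkx-CreER/flox 1.

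At the ER entry, 1 of 3 translocon genes and 1 of 4 genes of the translocon-associated complex fell against Mkx flox/+ in edgeR's fit to all libraries. That fit called 0 of them against both controls. Ssr4 passed there without Mkx-CreER/+ 4 (edgeR adjusted p = 0.0395) and in limma voom (-0.70, limma adjusted p = 0.00288). Sec61a1, the pore subunit of the channel (chromosome 6, 88503579 to 88518905, minus strand, mm10), measured 78.0, 86.5 and 99.5 CPM in Mkx-CreER/flox, 88.3, 92.4 and 97.4 in Mkx-CreER/+, and 150, 109, 121 and 154 in Mkx flox/+. The CreER genotypes overlapped each other and lay below every Mkx flox/+ library. Sec61a1 fell by 0.60 (SE 0.171, edgeR adjusted p = 0.0472) against Mkx flox/+, and 8.16% of its exon length overlaps a gene model on the other strand, with the strand setting of the counting not given. Ssr4, the delta subunit of the translocon-associated complex (chromosome X, 73787028 to 73790830, plus strand, mm10), measured 92.8, 69.5 and 76.4 CPM in Mkx-CreER/flox, 110, 115 and 76.1 in Mkx-CreER/+, and 129, 106, 140 and 147 in Mkx flox/+. Here the knockout overlapped Mkx-CreER/+ through library 4 of that control alone. Against Mkx flox/+ Ssr4 fell by 0.71 (SE 0.192, edgeR adjusted p = 0.0376), and the muscle-adjusted value was -0.93 (edgeR adjusted p = 0.0474). Leaving out 1 library at a time, the values against Mkx flox/+ ran from -0.71 to -0.54 for Sec61a1 (edgeR adjusted p 0.0343 to 0.142) and from -0.86 to -0.62 for Ssr4 (0.0251 to 0.15). Sec61a1 lost its call without Mkx-CreER/+ 1 or 2, knockout library 1 or 4, or Mkx flox/+ 1, 3 or 4, and in the muscle-adjusted fit (-0.60, edgeR adjusted p = 0.14). RLE scaling (edgeR adjusted p = 0.0503), no filter (0.0643), a fit on the compared groups alone (0.0799), and muscle adjustment with knockout library 1 left out (0.118) also ended it, so the call held in 7 of 19 settings. Ssr4 lost its call without Mkx-CreER/+ 1, knockout library 4 or 5, or Mkx flox/+ 1, 3 or 4, and held in 13 of 19 settings.

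The partners of these subunits in the same complexes did not pass in edgeR, while limma voom called Sec61b and Ssr2 against Mkx flox/+ and against both controls. Of the small translocon subunits, Sec61b stood at -0.42 against Mkx flox/+ (edgeR adjusted p = 0.434) and Sec61g at 0.13 (0.849). In the translocon-associated complex, Ssr2 stood at -0.51 (edgeR adjusted p = 0.131), Ssr1 at -0.0076 (0.987) and Ssr3 at 0.13 (0.803). Subunits of one complex thus had values of both signs, and whether they differ from each other was not tested. Signal peptidase, which cuts the signal peptide, had values of 0.15 (Spcs1), 0.020 (Spcs2) and 0.38 (Spcs3) against Mkx flox/+, with edgeR adjusted p of 0.32 to 0.963. Of the exon length of Spcs1, 16.3% overlaps Glt8d1 on the other strand, and Spcs2 has 1 named pseudogene that could share its reads.

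The 7 chaperones and disulfide isomerases did not pass in any of the 4 comparisons in edgeR, at adjusted or unadjusted p under 0.05, and DESeq2 and limma voom called 0 of them. Against both controls their median was 0.065, with a range from -0.24 (Pdia4) to 0.26 (Canx), and the interval of Hspa5, the BiP chaperone, ran from 76.6% to 146% of the controls. Hspa5 measured 409, 236 and 245 CPM in Mkx-CreER/flox, 309, 267 and 297 in Mkx-CreER/+, and 363, 191, 286 and 241 in Mkx flox/+. Its knockout mean rested on library 1, which was the highest of all 10. Calr, the most abundant of the group per length and a gene with 1 named pseudogene, measured 224, 215 and 222 CPM in Mkx-CreER/flox, 235, 214 and 205 in Mkx-CreER/+, and 273, 163, 267 and 241 in Mkx flox/+. Calr stood at -0.042 against both controls (SE 0.171, edgeR adjusted p = 0.925), with the knockout libraries inside the Mkx flox/+ range. The isomerase Pdia4, the member of smallest p in the group, stood at -0.24 (SE 0.164, edgeR adjusted p = 0.445). Without library Mkx-CreER/flox 1, 6 of the 7 were below 0, from -0.27 to 0.12, and none passed. The share of all genes below 0 without that library was not taken.

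The ER stress response element (the letters CCAAT, then 9 bases of any kind, then CCACG) is the site through which ATF6 and XBP1 act on chaperone genes, and it is shown here because it marks most of this group. In RefSeq promoter windows of the GRCm38.p6 build (250 bases before to 50 after a start; 32 of the 37 genes had one), it was found on either strand in 5 genes, all of them among the 7 chaperones and isomerases. Of all 32851 windows, 39 (0.119%) held it. The stretches follow 5′ to 3′ on the gene's strand, with the fixed letters of each match in capitals. Hspa5 is cut to 30 bases because its match lies in bases annotated as an exon.
Hspa5: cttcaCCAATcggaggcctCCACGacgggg
Hsp90b1: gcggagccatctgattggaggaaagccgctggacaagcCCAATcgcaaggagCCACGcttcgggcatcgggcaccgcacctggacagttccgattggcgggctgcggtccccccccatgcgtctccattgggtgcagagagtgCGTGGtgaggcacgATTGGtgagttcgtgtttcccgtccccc
Calr: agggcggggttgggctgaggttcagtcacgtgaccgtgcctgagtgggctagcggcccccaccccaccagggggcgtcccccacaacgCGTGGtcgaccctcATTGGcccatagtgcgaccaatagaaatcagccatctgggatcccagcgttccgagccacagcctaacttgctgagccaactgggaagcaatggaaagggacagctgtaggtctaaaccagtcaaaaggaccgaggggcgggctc
Canx: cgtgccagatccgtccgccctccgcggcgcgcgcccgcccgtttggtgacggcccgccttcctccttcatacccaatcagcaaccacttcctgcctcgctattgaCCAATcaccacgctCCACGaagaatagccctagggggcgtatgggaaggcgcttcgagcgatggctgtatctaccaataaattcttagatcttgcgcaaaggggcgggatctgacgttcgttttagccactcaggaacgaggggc
Pdia6: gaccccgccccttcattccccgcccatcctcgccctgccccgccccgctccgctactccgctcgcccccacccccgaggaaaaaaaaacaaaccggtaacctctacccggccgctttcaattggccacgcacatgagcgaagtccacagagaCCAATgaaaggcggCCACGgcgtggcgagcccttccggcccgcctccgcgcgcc

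The Hspa5 stretch lies at chr2:34772020-34772049 (plus strand), Hsp90b1 at chr10:86705510-86705694 (minus), Calr at chr8:84846935-84847181 (minus), Canx at chr11:50325674-50325923 (minus) and Pdia6 at chr12:17266339-17266544 (plus). Hsp90b1 held a pair of matches, one on each strand, and the Calr match was on the opposite strand, so the capitals there read as the reverse complement. The 5 genes with the element had log2 fold changes of 0.080 (Hspa5), 0.065 (Hsp90b1), -0.042 (Calr), 0.26 (Canx) and -0.22 (Pdia6) against both controls. Pdia3 and Pdia4, which had a window without the element, stood at 0.087 and -0.24. A match describes the letters and is not a measured binding site.

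Of the 10 COPII coat genes, edgeR called 0 in any of the 4 comparisons in the fit to all libraries. Against Mkx flox/+, DESeq2 called Sec31a, limma voom called Sec31a and Sec24d, and edgeR without Mkx flox/+ 2 called Sec24d. Against both controls their median was -0.11, from -0.35 (Sec24d) to 0.49 (Sar1b), and 0 reached an unadjusted p under 0.05. Sec24d, a cargo adaptor linked to procollagen export, measured 115, 111 and 136 CPM in Mkx-CreER/flox, 131, 126 and 144 in Mkx-CreER/+, and 219, 123, 171 and 204 in Mkx flox/+. Library 2 of Mkx flox/+ lay among the CreER libraries and the other 3 lay above them. Sec24d stood at -0.57 against Mkx flox/+ (SE 0.197, edgeR adjusted p = 0.0966), and its paralogs at -0.013 (Sec24c), -0.20 (Sec24a) and -0.23 (Sec24b). The outer coat subunit Sec31a measured 291, 286 and 306 CPM in Mkx-CreER/flox, 296, 304 and 318 in Mkx-CreER/+, and 465, 320, 440 and 457 in Mkx flox/+. Every CreER library of Sec31a lay below every Mkx flox/+ library, at -0.51 for the knockout (SE 0.18, edgeR adjusted p = 0.0983). Its partner Sec13 stood at -0.46 (edgeR adjusted p = 0.263), with Mkx flox/+ 2 the lowest of all 10 libraries at 53.3 CPM. The inner coat paralogs Sec23a and Sec23b stood at 0.14 and -0.083 against Mkx flox/+, and 8.9% of the exon length of Sec23a overlaps a gene model on the other strand.

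The GTPase paralogs differed in their spread over libraries. Sar1a measured 314, 292 and 268 CPM in Mkx-CreER/flox, 327, 289 and 293 in Mkx-CreER/+, and 394, 253, 290 and 426 in Mkx flox/+. Sar1b was more scattered, at 153, 56.1 and 62.4 CPM, 59.6, 93.8 and 49.4 CPM, and 51.7, 34.5, 103 and 56.3 CPM in the same order. Its value of 0.49 against both controls rested on library Mkx-CreER/flox 1 and was -0.15 without it. At the exit sites, the scaffold Sec16a stood at -0.40 against Mkx flox/+ (edgeR adjusted p = 0.181), with a call by limma voom, and measured 120, 134 and 155 CPM in the knockout and 193, 160, 169 and 196 CPM in Mkx flox/+. Tfg, which organizes COPII carriers, stood at 0.082 against both controls and at -0.35 without library Mkx-CreER/flox 1. The large-cargo receptor Mia3 measured 141, 125 and 124 CPM in Mkx-CreER/flox, 117, 126 and 123 in Mkx-CreER/+, and 167, 144, 129 and 145 in Mkx flox/+, at -0.040 against both controls (SE 0.138, edgeR adjusted p = 0.909). Mia2 stood at 0.21 against both controls (SE 0.201, edgeR adjusted p = 0.612).

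The 3 KDEL receptors had negative values in all 4 comparisons, and Kdelr1 fell against Mkx flox/+. Kdelr1 (chromosome 7, 45872772 to 45883732, plus strand, mm10) measured 58.7, 38.5 and 54.9 CPM in Mkx-CreER/flox, 81.2, 66.9 and 48.1 in Mkx-CreER/+, and 101, 73.0, 89.0 and 79.5 in Mkx flox/+. The knockout lay below Mkx flox/+ in full and overlapped Mkx-CreER/+ through library 4 of that control. Against Mkx flox/+ Kdelr1 fell by 0.76 (SE 0.212, edgeR adjusted p = 0.0439), to 59.2% (95% interval 43.2% to 81.0%). Left-out libraries moved this from -0.90 to -0.59 (edgeR adjusted p 0.0299 to 0.179), and the call was lost without Mkx-CreER/+ 2, knockout library 4 or any of the Mkx flox/+ libraries, and with muscle adjustment (-0.80, 0.128; -0.90, 0.0659 with knockout library 1 also left out), so it held in 11 of 19 settings. Kdelr3 measured 60.2, 64.3 and 56.9 CPM in Mkx-CreER/flox, 82.1, 63.2 and 69.9 in Mkx-CreER/+, and 156, 70.1, 76.4 and 178 in Mkx flox/+. Its Mkx flox/+ libraries formed 2 pairs, 1 close to Mkx-CreER/+ and 1 far above, and the gene stood at -0.99 (SE 0.289, edgeR adjusted p = 0.0536). DESeq2 and limma voom called Kdelr3 against Mkx flox/+, as did edgeR without Mkx flox/+ 2 or 3. Kdelr2 measured 183, 133 and 137 CPM, 203, 161 and 149 CPM, and 282, 134, 254 and 265 CPM in the same order of genotypes, and stood at -0.63 against Mkx flox/+ (SE 0.242, edgeR adjusted p = 0.131), with a call by limma voom and by edgeR without Mkx flox/+ 2. Against both controls the receptors stood at -0.56 (Kdelr1), -0.40 (Kdelr2) and -0.62 (Kdelr3), with edgeR adjusted p of 0.111 to 0.321; limma voom called Kdelr1 and Kdelr2 there, and edgeR without Mkx-CreER/+ 4 called Kdelr1.

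The letters TGACGTGG, the core of the element bound by XBP1 and known as the unfolded protein response element, were found on either strand in the windows of Kdelr3, Sec23a and Sec24d, and in 222 of all 32851 windows (0.676%). The full cyclic AMP response element TGACGTCA, which shares its first 6 letters, was in none of the 32 windows and in 1.79% of all. The Kdelr3 and Sec24d matches are shown because these genes had the lowest values of their role groups against Mkx flox/+, and Sec23a beside them because its value was not low. Sec24d and Sec23a are cut to 30 bases since their matches lie in annotated exon bases.
Kdelr3: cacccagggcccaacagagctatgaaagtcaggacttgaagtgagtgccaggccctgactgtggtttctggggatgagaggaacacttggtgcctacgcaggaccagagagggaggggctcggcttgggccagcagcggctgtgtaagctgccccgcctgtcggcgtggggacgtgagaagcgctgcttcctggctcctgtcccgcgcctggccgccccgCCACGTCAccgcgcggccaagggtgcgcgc
Sec24d: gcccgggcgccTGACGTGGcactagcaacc
Sec23a: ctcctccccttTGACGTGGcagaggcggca

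The Kdelr3 stretch lies at chr15:79516158-79516407 (plus strand), Sec24d at chr3:123267459-123267488 (plus) and Sec23a at chr12:59011993-59012022 (minus), on GRCm38.p6. Against Mkx flox/+ these genes stood at -0.99, -0.57 and 0.14, so the letters were found in promoters of genes with values of both signs. Creb3l1, Sec61a1, Ssr2, Spcs3 and Kdelr2 had no window in the table used here.

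The controls themselves were compared to see how far they can stand for each other. Between Mkx-CreER/+ and Mkx flox/+, edgeR called 0 of the 37 and 0 of all 16017 genes (0% of genes), DESeq2 called 31 genes, of which Creb3l1 alone was among the 37 (-1.05, DESeq2 adjusted p = 0.0196), and limma voom called 0. At an unadjusted p under 0.05, 5 of the 37 were lower in Mkx-CreER/+ (Creb3l1, Sec61a1, Sec24d, Sec31a and Kdelr3) and 0 higher, beside 2.66% and 2.32% of all genes. Of the 37, 28 had negative values with a median of -0.135, beside 49.7% of all genes and a median of 0.0016. The Mkx-CreER/+ libraries lay below all Mkx flox/+ libraries for Creb3l1, Sec61a1, Sec31a and Mia3, where 3.89% of all genes did so. Creb3l1 stood at -1.05 (SE 0.214, edgeR unadjusted p = 0.000194, adjusted p = 0.489), or 48.2% of Mkx flox/+ (95% interval 35.1% to 66.1%), and had rank 4 of 16017 genes by p. This value is also the difference between the knockout's fold changes against its 2 controls, which for Creb3l1 were -1.45 and -0.40. Mkx itself stood at -0.78 between the controls (SE 0.176, edgeR unadjusted p = 0.000499, adjusted p = 0.489). That is 58.2% of Mkx flox/+ (95% interval 44.9% to 75.5%), with rank 13 by p, and Mkx was called there in 1 of 19 other settings. The tendon marker sums given above did not overlap between the controls either.

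Single libraries stood high or low in many of the 37 genes together, and the same counts over all genes were not taken. Library Mkx flox/+ 1 was the highest of all 10 in 16 genes and below the median of the 10 libraries in 1. Library Mkx flox/+ 2, the shallowest at 8680934 counts, was the lowest in 16 genes. Library Mkx-CreER/flox 1 was the highest in 12 genes, among them Hspa5, Hsp90b1, Pdia3, Canx, Sec23a, Sar1b, Spcs1 and Spcs3, and the lowest in 4, which included Creb3l1 (47.6 CPM) and Sec61a1 (78.0 CPM). That library also had the highest skeletal muscle and mitochondrial shares of counts (11.8% and 8.85%, against up to 8.38% and 5.32% in the other 9). It stood apart over all genes tested too, at 84.6 on the first principal component, against at most 36.9 in the other 9. With the muscle score as covariate, Sar1b went from 0.49 to -0.029 and Spcs1 from 0.16 to 0.047 against both controls. Hspa5 stayed at 0.080 and Canx went from 0.26 to 0.37 in that fit. The part of the mitochondrial share was not tested, and the muscle fit cannot fully separate muscle content from genotype. Libraries 4 and 5 of Mkx-CreER/flox each lay below the median of the 10 in 31 of the 37 genes. Without library Mkx-CreER/flox 1, 32 of 37 genes were negative against both controls with a median of -0.23, beside 23 and -0.059 with it. Leaving out a library that was highest in 12 of these genes lowers the knockout mean of those genes by construction. The share of all genes below 0 in that fit was not taken.

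**Figure D4:**
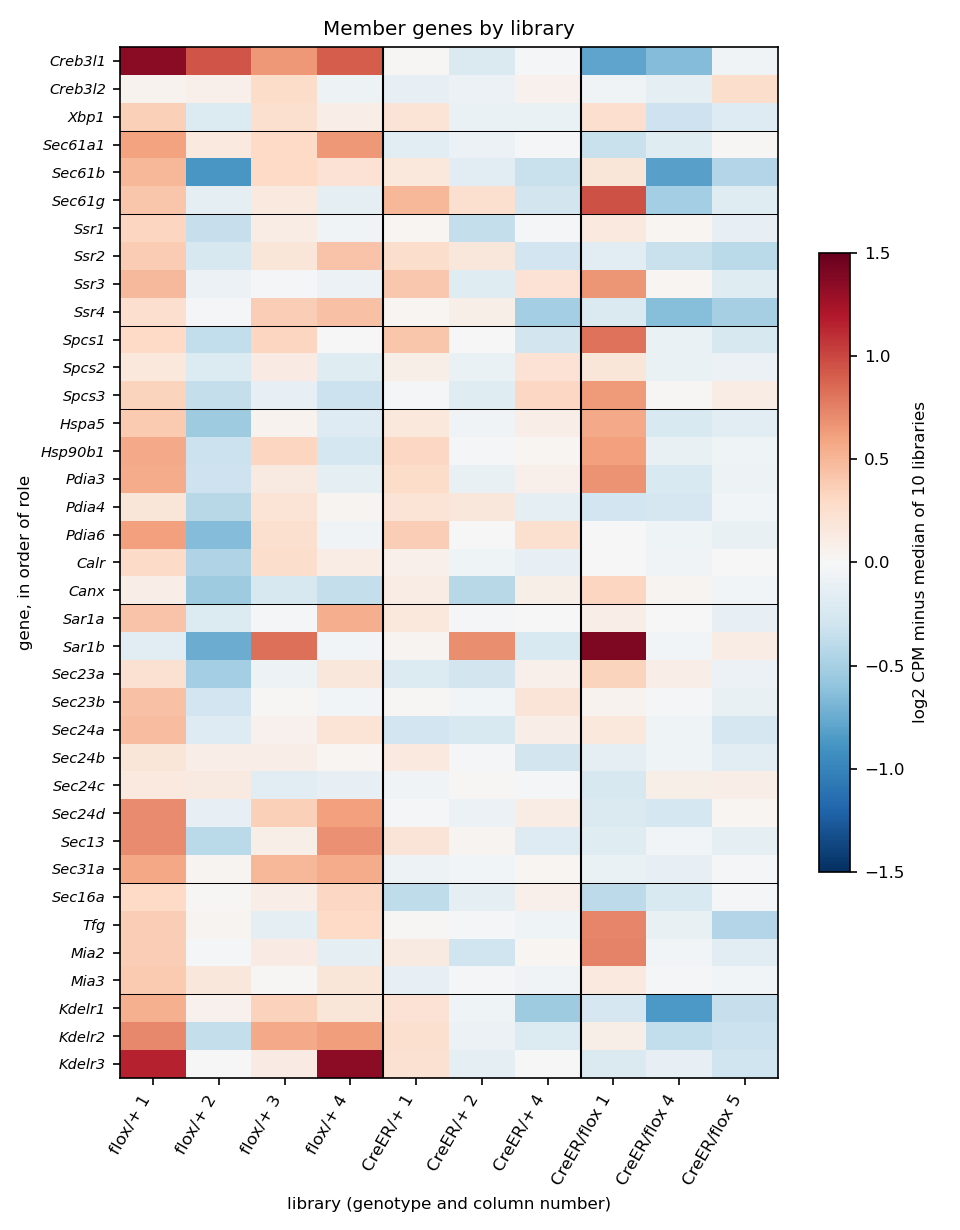
Log2 CPM of the 37 genes in each library minus the gene's median over the 10 libraries, with genotypes separated by vertical lines and roles by horizontal ones. Library Mkx-CreER/flox 1 is high in 12 genes and low in Creb3l1, and the libraries flox/+ 1 and flox/+ 2 differ across much of the list.

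Neighbouring steps of the pathway, taken from lists of other genes, were described in the same way. Of 8 collagen chains, the cargo, 2 fell against both controls and 5 against Mkx flox/+, beside 1.62% and 2.9% of all genes. The same shares of all genes stand beside the counts of the lists that follow. Col1a1 averaged 24300 ± 11100 CPM (SD, n = 4) in Mkx flox/+, 7680 ± 992 (n = 3) with the CreER allele alone and 4090 ± 941 (n = 3) in the knockout, the same order of genotypes as Creb3l1. Against both controls Col1a1 fell, at -1.74 with SE 0.357 (edgeR adjusted p = 0.0224), as did Col1a2 at -1.475 (edgeR adjusted p = 0.0282). Each call held in 12 of 19 other settings, and both were lost without Mkx-CreER/+ 1 or 2 or knockout library 4, that of Col1a1 also without knockout library 1 and that of Col1a2 without Mkx flox/+ 1. Over the 10 fits with 1 library left out, edgeR adjusted p reached 0.0631 for Col1a1 and 0.0918 for Col1a2. Of 16 COPII partners and cargo receptors, Ergic3 fell by 0.78 (SE 0.182, edgeR adjusted p = 0.0305), and 15 did not pass. That call held in 11 of 19 other settings and was lost without Mkx-CreER/+ 1 or 2, knockout library 1 or 4, or Mkx flox/+ 1 or 3 (edgeR adjusted p 0.00718 to 0.11 with 1 library left out). Ergic3, which cycles between ER and Golgi, measured 104, 107 and 129 CPM in Mkx-CreER/flox, 192, 215 and 123 in Mkx-CreER/+, and 217, 195, 227 and 216 in Mkx flox/+. Of 16 other folding factors, Sil1, the nucleotide exchange factor of BiP, fell by 0.63 (SE 0.166, edgeR adjusted p = 0.0436), and 15 did not pass. The call of Sil1 held in 6 of 19 other settings and, among the fits with 1 library left out, only without Mkx-CreER/+ 4 (edgeR adjusted p 0.0242 to 0.136 over these 10 fits). Its knockout libraries measured 22.9, 22.8 and 22.8 CPM, below each of the Mkx-CreER/+ (36.0, 30.5 and 25.3) and Mkx flox/+ libraries (43.2, 35.1, 40.8 and 45.3).

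In the other lists edgeR called 0 genes against both controls in the fit to all libraries, though some of the genes named here were called in other settings. Cope passed in 5 of 19 of these, Rpn2 in 4, Ddost in 3, Copz2 in 2 and Tram2 in 1, all as lower, and Atf3 passed as higher in 2 (DESeq2 and limma voom). The oligosaccharyltransferase, which adds N-glycans at the translocon, had 0 of 10 called, with its subunits Rpn2 at -0.70 (edgeR adjusted p = 0.0652) and Ddost at -0.65 (0.0695), and both fell against Mkx flox/+ (-0.88 and -0.82). The COPI coat and Golgi list had 0 of 16, with Cope at -0.66 (edgeR adjusted p = 0.064) and Copz2 at -0.59 (0.11). Cope fell against Mkx flox/+ (-0.77, edgeR adjusted p = 0.0403). Signal recognition and targeting had 0 of 13 tested, led by Tram2, a translocon partner linked to collagen synthesis, at -0.40 (edgeR adjusted p = 0.114). Tram2 fell against Mkx flox/+ (-0.64, edgeR adjusted p = 0.0244). Srp19 of the same list stood at 0.45 (edgeR adjusted p = 0.309). The unfolded protein response and ER degradation list had 0 of 13 tested. Its median was -0.041, and 9 of the 13 were negative, beside 48.5% of all genes. The 2 of smallest p were positive, the stress factors Atf3 at 0.92 (SE 0.287, edgeR adjusted p = 0.0794) and Atf6 at 0.41 (SE 0.169, 0.181). Atf3 measured 16.8, 11.4 and 10.1 CPM in Mkx-CreER/flox, 6.88, 5.68 and 4.92 in Mkx-CreER/+, and 7.69, 10.7, 9.15 and 3.60 in Mkx flox/+. Of the 6 genes of the CREB3 family list none passed, and Creb3, a relative of Creb3l1, stood at -0.36 (SE 0.165, edgeR adjusted p = 0.23). Creb3l4, a further relative that measured under 3 CPM in every library, stood at -0.99 (edgeR adjusted p = 0.304).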

How the data were processed

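Achilles tendon RNA of 10 libraries was measured as counts per gene. The authors deposited raw counts for 32285 Ensembl genes; per the submitters' processing notes, fastp, STAR and mm10 were used, with no versions; the counting tool and its strand setting are not given there. Of the columns, those of Mkx flox/+ were paired with samples by their number, and the rest by genotype only. Symbols, positions and exon lengths came from GENCODE vM21 by Ensembl ID (32235 IDs matched, 50 did not). Promoter windows came from RefSeq (GRCm38.p6).

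Differences were tested with edgeR 4.0.16 (R 4.3.3): filterByExpr by genotype, TMM scaling, and a robust quasi-likelihood model with a term per genotype over all 10 libraries, with Benjamini-Hochberg adjusted p-values over 16017 genes. Total counts were 8680934 to 22656417 per library, at which 3 counts correspond to 0.126 to 0.36 CPM, a limit that covers counting error only. Chi-square per degree of freedom between replicate pairs was 23.6 to 119, far above counting noise, so each library counted once. TPM divides counts by exon length before scaling. Figures were drawn with matplotlib 3.10.9.

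The members, the gene lists and the tests were chosen with earlier results of these data known. Named were Mkx, members called in any comparison, in each role group the member of highest level per length and of smallest p and each paralog, and up to 4 called genes of each other list (the 2 of smallest p where none was called). Other settings were DESeq2 1.42.0, limma 3.58.1 voom with sample quality weights, RLE scaling, another low-count filter (none, or 1 CPM in 3 or more libraries), leaving out erythroid, muscle and mitochondrial genes, a muscle score as covariate, fits on the compared groups alone, pooled controls (as 1 group), and every library omitted in turn. The muscle covariate together with library Mkx-CreER/flox 1 left out was chosen after seeing the data. The fit was tested on simulated data. In 3 simulations of the comparison against both controls it found, on average, 57.7% of 2-fold and 89.3% of 4-fold changes. A gene that was not called can therefore still differ by 2-fold.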

Additional observations from a re-analysis of the deposited data

Results flagged for a closer look

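Ssr3, the gamma subunit of the translocon-associated protein complex, measured 381 CPM in library Mkx flox/+ 1, far from the 256 to 268 CPM of the other 3 Mkx flox/+ libraries. The gap to its nearest neighbour was 0.898 of the range of the 4 libraries. It was the one such case among 38 groups of 4 examined. Chance alone gives about 1 in 20, so 1 case among 38 is no more than chance would give. The same library was the highest of all 10 in 16 of the 37 genes, and the part of the library in this value was not tested.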

How the results depend on the processing

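No paired analysis was possible because the labels give no link between libraries of different genotypes, only replicate numbers within each. Of 37 members, the number called against both controls (1) became 6 with limma voom, and 0 with the muscle score as covariate, with the controls as 1 group, or with the muscle score and library Mkx-CreER/flox 1 left out. Over all genes, the 744 calls became 3004, 115, 575 and 213 in these fits, in the same order. With 1 library left out the members called ran from 0 to 3, while calls over all genes ran from 64 to 1114. Against Mkx flox/+ the 4 calls became 11 with limma voom, 2 with the muscle score, and 2 with the muscle score and that library left out, and ran from 1 to 6 with 1 library left out. All genes called there went from 1165 to 2854, 228 and 470, and ran from 455 to 1585 with 1 library left out. Against Mkx-CreER/+ the count of 0 became 1 with limma voom (all genes from 1 to 734). It was 0 with each library left out, where calls over all genes ran from 0 to 117. Between the controls 0 became 1 with DESeq2 (all genes from 0 to 31) and was 0 with each library left out. The cause of these moves was not tested. Every member called in any of these settings was called as fallen. Of 1957 single-gene values under other settings, 70 lost a call, 33 gained one and 0 of those called turned in sign. The median of all genes against both controls was 0.016 with TMM, 0.019 with RLE and 0.017 in DESeq2.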

Other observations

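Creb3l3, a CREB3 relative best known in liver, was named here after its values were seen. It measured 2.34, 1.82, 3.64 and 3.48 CPM in Mkx flox/+, but 0.37, 0.893 and 0.21 CPM in Mkx-CreER/+ and 0.181, 0.835 and 0.739 CPM in the knockout; in these 6 libraries 3 counts are worth 0.126 to 0.271 CPM. Creb3l3 was lower in every library with the CreER allele than in every Mkx flox/+ library. Of all genes, 9.5% lay lower in this way in the knockout and 3.89% in Mkx-CreER/+. As the gene was picked for these values, and some of them lie near that limit, the lack of overlap is no test. Its log2 fold change was -2.21 for Mkx-CreER/flox against Mkx flox/+ (edgeR adjusted p = 0.0515) and -2.51 for Mkx-CreER/+ against Mkx flox/+ (0.6), so neither passed.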
